A study of Mus musculus with 20 samples.

Results

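The genes described here are 10 members of insulin and insulin-like growth factor (IGF) signalling, out of 32285 genes counted in the hippocampus of 20 mice. They are the ligands *Igf1* and *Igf2*, the receptors *Igf1r*, *Igf2r* and *Insr*, the secreted binding proteins *Igfbp2*, *Igfbp4* and *Igfbp5*, and the receptor substrates *Irs1* and *Irs2*. The genes were selected on the measured level of *Igfbp5*, which was high in CA1 neurons of WT mice under ketamine, and the list was drawn up with earlier results of these data known. That contrast is therefore given as a description without a test, as are *Igfbp5* in every comparison that includes the WT ketamine mice and the other members in CA1 when all ketamine mice are set against wake mice. *Igfbp5* was tested where those mice are not compared, under isoflurane and in the APP/PS1 ketamine mice. The genotype comparison averages over all groups, so its CA1 tests of the other members include the WT ketamine mice.

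IGF1 and insulin bind the tyrosine kinase receptors encoded by *Igf1r* and *Insr*. The activated receptors phosphorylate the substrates encoded by *Irs1* and *Irs2*, which recruit phosphoinositide 3-kinase and so drive Akt, the growth regulator mTOR and the exclusion of FOXO transcription factors from the nucleus. *Igf2r* encodes a receptor that clears IGF2 and has no kinase domain. IGF binding proteins hold the ligands outside the cell, and proteases of the pappalysin family (*Pappa*, *Pappa2*) release them. In brain the pathway is known for its part in neuronal growth, glial development and glucose handling.

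Nuclei were isolated from frozen hippocampus of male mice aged 4.5 to 5.5 months and profiled by droplet single-nucleus RNA sequencing, in which each molecule is counted by a unique molecular identifier (UMI). The mice carried the APPSwe and PS1ΔE9 transgenes (APP/PS1), which in this line are driven by the prion protein promoter, or were their wild-type (WT) littermates. Wake mice received no anesthetic (WT n = 6, APP/PS1 n = 3), isoflurane mice inhaled 5% and then 1.5% isoflurane for 3 h (WT n = 3, APP/PS1 n = 4), and ketamine mice received 150 mg/kg ketamine together with 12 mg/kg xylazine for 3 h (WT n = 2, APP/PS1 n = 2), so that the effects of ketamine and xylazine cannot be told apart. The study asked how general anesthesia alters hippocampal transcription in each genotype.

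Libraries held 9243992 to 25394891 UMIs per mouse. Of 160777 nuclei, 141115 were assigned to classes by marker genes and whole profile, and 3251 of 157472 distinct barcodes occurred in more than 1 mouse. Classes are called CA1-like, astrocyte-like and so on. *Prnp*, whose promoter drives the transgenes, went partly against the labels, with 42.2 to 195.7 CPM (UMIs divided by all UMIs of the library and scaled to parts per 1e6) of the whole library in mice labelled WT and 63.6 to 433.4 in mice labelled APP/PS1. The highest WT value belonged to mouse 14 and the lowest APP/PS1 values to mice 11 (63.6) and 17 (74.5), and mouse 20, labelled APP/PS1, had 99.7 CPM, below WT mice 1, 3, 14 and 19. The genotypes used are those of the labels, which these values do not bear out for every mouse. The group sizes in the series' design text and in the paper also differ from those of the labels. All ketamine mice have numbers between 25 and 29, a run that holds 1 wake mouse (mouse 29) and no isoflurane mouse, so that treatment and whatever else that run shares nearly cannot be told apart.

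Levels were read as CPM of the UMIs summed per mouse and class and are compared between classes for 1 gene at a time, never between genes. Values are mean ± SD over mice with at least 20 nuclei of the class. Classes come from the same mice and were assigned from the same counts, so no test is given between classes.

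**Figure D1:**
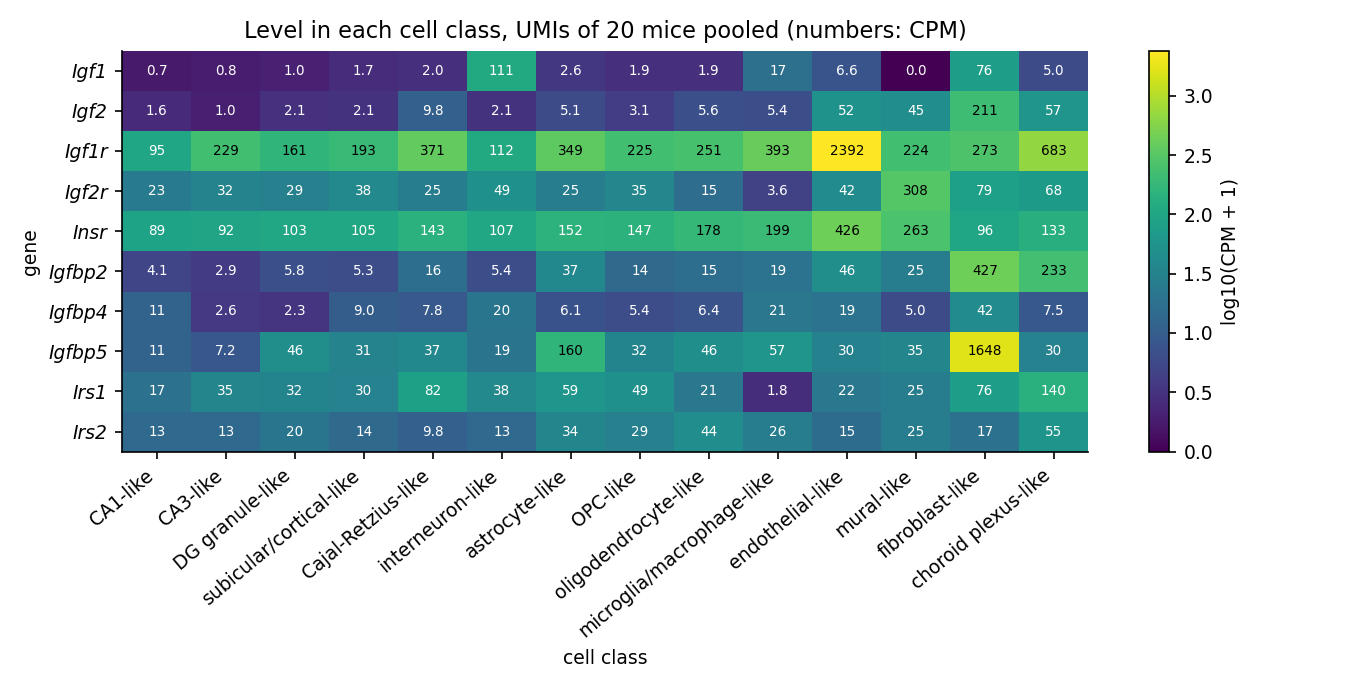
Levels of the 10 genes (rows) in 14 cell classes (columns), as CPM of the UMIs of all mice pooled, with the colour on a log10(CPM + 1) scale and the CPM printed in each cell. *Igf1* stands out in interneuron-like nuclei (111.3), *Igf1r* in endothelial-like nuclei (2392), and *Igf2*, *Igfbp2* and *Igfbp5* in fibroblast-like nuclei (211.1, 427.2 and 1648). Of the 6197 *Igfbp5* UMIs in fibroblast-like nuclei 4867 came from the 2 WT ketamine mice, and without them the pooled level is 445.6.

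Among the ligands, *Igf1* (chr10:87858265-87937042, plus strand, GRCm38) was highest in interneuron-like nuclei. It reached 113.5 ± 25.4 CPM there (n = 20, range 68.6 to 169.9) and 59.2 ± 64.0 CPM in fibroblast-like nuclei (n = 16), where the spread between mice exceeded the mean. At least 1 *Igf1* UMI was present in 19.5% of interneuron-like nuclei, whose median depth per mouse was 1498 to 5557 UMIs. In CA1-like nuclei, of median depth 1701.5 to 7272 UMIs, the share was 0.241%, and in dentate gyrus (DG) granule-like nuclei it was 0.212%.

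Subclasses of the interneurons were small, with at least 20 nuclei in 16 mice for Sst-like, 12 for Cnr1/Cck-like, 5 for Pvalb-like, 1 for Lamp5-like and 0 for Vip-like nuclei. Their *Igf1* is therefore given as UMIs pooled over mice, whose own levels differ, with exact 95% Poisson intervals that cover counting error only. The level was 384.2 CPM (286.0 to 505.1) in 54 Vip-like nuclei and 269.6 CPM (248.2 to 292.3) in 605 Cnr1/Cck-like nuclei. It was 102.8 CPM (74.7 to 138.0) in Lamp5-like and 98.4 CPM (88.2 to 109.5) in Sst-like nuclei, whose intervals overlap. Pvalb-like nuclei had the lowest level, 30.4 CPM (21.8 to 41.2). The interval of the Vip-like nuclei, which rest on 51 UMIs, touches that of the Cnr1/Cck-like nuclei, and neither meets those of the other 3 subclasses. Within mice with at least 20 nuclei of both, *Igf1* was higher in Cnr1/Cck-like than in Sst-like nuclei in 11 of 12 mice, and higher in Sst-like than in Pvalb-like nuclei in 5 of 5.

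*Igf2* (chr7:142650766-142666816, minus strand), an imprinted gene expressed in the meninges and choroid plexus, was highest in fibroblast-like nuclei at 193.2 ± 123.8 CPM (n = 16). The mice spanned 46.4 to 393.2 CPM, and those extremes were the 2 WT ketamine mice. Endothelial-like nuclei held 59.2 ± 35.1 CPM (n = 7), while CA1-like and CA3-like nuclei had 1.78 ± 2.07 and 1.01 ± 1.41 CPM (n = 20).

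Among the receptors, *Igf1r* (chr7:67952827-68233668, plus strand) was highest in endothelial-like nuclei, 2104 ± 1082 CPM (n = 7), and 83.7% of those nuclei held at least 1 UMI. Choroid plexus-like nuclei followed with 697.1 ± 166.2 CPM (n = 8), then Cajal-Retzius-like nuclei with 414.1 ± 147.5 CPM (n = 15) and microglia/macrophage-like nuclei with 410.9 ± 178.9 CPM (n = 19). Of the 15 mice with both of these classes, 6 were higher in Cajal-Retzius-like nuclei. Astrocyte-like nuclei had 347.2 ± 91.6 CPM, and CA1-like nuclei the lowest level, 96.3 ± 12.1 CPM (n = 20 for both). *Insr* (chr8:3122061-3279617, minus strand) was flatter, from 370.6 ± 112.6 CPM in endothelial-like nuclei (n = 7) to 90.2 ± 11.1 CPM in CA1-like nuclei (n = 20), with DG granule-like nuclei at 103.1 ± 12.2 CPM, higher than CA1-like nuclei of the same mouse in 17 of 20 mice although the ranges over mice overlap.

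*Igf2r* (chr17:12682406-12769664, minus strand) was highest in mural-like nuclei at 250.6 ± 186.8 CPM (n = 4) and in fibroblast-like nuclei at 93.9 ± 47.1 CPM (n = 16). Among neurons it reached 48.7 ± 10.1 CPM in interneuron-like nuclei (n = 20), and microglia/macrophage-like nuclei held 8 UMIs in all. The gene whose level over the 14 classes was most like that of *Igf2r* was *Airn* (Pearson r = 0.974 on log2(mean CPM + 1), a description over classes that share libraries). *Airn* is the antisense RNA transcribed at the *Igf2r* locus. How the counting treated strand is not given in the sources used here, so overlapping reads of the pair are uncertain.

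Among the binding proteins, *Igfbp2* and *Igfbp5* are neighbours on chromosome 1 (72824503 to 72852474, plus strand, and 72857932 to 72874884, minus strand) and both were highest in fibroblast-like nuclei. *Igfbp2* reached 391.3 ± 206.3 CPM there (n = 16), and choroid plexus-like nuclei held 113.8 to 494.1 CPM (n = 8). Astrocyte-like nuclei had 37.8 ± 18.0 CPM (n = 20), against 4.56 ± 4.25 CPM in CA1-like nuclei. *Igfbp5* reached 1281 ± 2060 CPM in fibroblast-like nuclei (n = 16), a mean set by the 2 WT ketamine mice, since the median was 445.7 CPM. Its next highest class was astrocyte-like nuclei, at 170.3 ± 89.6 CPM (n = 20). *Col1a1*, a collagen of fibroblasts, was among the genes most like *Igfbp5* over the 14 classes (r = 0.928, the same at these digits as for *Eif4g1*, a translation initiation factor). These means include the 2 WT ketamine mice. *Col1a1* was also a marker used to assign fibroblast-like nuclei, so its high level there follows partly from the gate.

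*Igfbp4* (chr11:99041244-99054392, plus strand) had its highest mean in fibroblast-like nuclei, at 54.4 ± 50.8 CPM (n = 16), beside 17.1 ± 12.5 CPM in interneuron-like and 11.2 ± 6.37 CPM in CA1-like nuclei (n = 20 for both). The ranges of the last 2 overlap, and interneuron-like nuclei were the higher in 16 of 20 mice. By the share of nuclei with a UMI, interneuron-like nuclei (4.87%) stood above fibroblast-like nuclei (3.11%). In CA1-like nuclei mice 1, 2 and 3 had the highest levels, 21.4, 25.5 and 25.1 CPM.

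Among the substrates, *Irs1* (chr1:82233101-82291416, minus strand) was highest in choroid plexus-like nuclei at 138.8 ± 48.7 CPM (n = 8). It stood at 59.6 ± 17.2 CPM in astrocyte-like and 17.7 ± 4.3 CPM in CA1-like nuclei (n = 20 for both), and microglia/macrophage-like nuclei held 4 UMIs. *Irs2* (chr8:10984681-11008458, minus strand) was highest in choroid plexus-like nuclei at 55.9 ± 23.0 CPM (n = 8). Mural-like nuclei were uneven, with 35.9, 166.3, 0 and 0 CPM in mice 1, 3, 4 and 10. Oligodendrocyte-like nuclei had 47.8 ± 21.4 CPM (n = 20), and choroid plexus-like nuclei were the higher in 4 of the 8 mice with both. Astrocyte-like nuclei had 32.7 ± 11.4 CPM (n = 20), below oligodendrocyte-like nuclei in 13 of 20 mice.

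To ask which of these genes changed under isoflurane, sums per mouse were compared between 7 isoflurane and 9 wake mice in each of the 8 classes where every mouse had at least 20 nuclei, with edgeR's quasi-likelihood test over all genes of a class. In astrocyte-like nuclei *Igf1r* rose 1.45-fold and *Irs2* 1.60-fold, and no other member passed the test in any class. Thus 2 of 70 tests of the members were called (2.86%, median log2 difference -0.18), against 5% of all 99573 tests of genes in these classes (2.91% higher and 2.09% lower). The difference between these shares was not tested. In astrocyte-like nuclei alone 2 of 10 members were called, both higher, where 7.55% of all genes were (4.81% higher).

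*Igf1r* in astrocyte-like nuclei was 264.0, 220.5, 262.1, 285.6, 325.6 and 316.9 CPM in the 6 WT wake mice and 255.0, 311.2 and 318.1 CPM in the 3 APP/PS1 wake mice. Under isoflurane it was 335.8, 413.9 and 327.7 CPM in WT mice and 433.2, 556.3, 432.1 and 544.2 CPM in APP/PS1 mice. All 7 isoflurane mice therefore lay above all 9 wake mice. The margin was narrow between isoflurane mouse 18 (327.7 CPM, 388 UMIs) and wake mouse 19 (325.6 CPM, 382 UMIs). The same order within each of the 4 runs of mouse numbers that hold both treatments follows from this and adds nothing to it. The log2 difference was 0.54 ± 0.12 (SE, adjusted p = 0.00659, edgeR).

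The difference was larger in APP/PS1 mice (log2 0.77 ± 0.17, adjusted p = 0.0310) than in WT mice (0.30 ± 0.16, adjusted p = 0.382), but the test of that dependence on genotype was not passed (0.47 ± 0.24, adjusted p = 0.948, edgeR). *Igf1r* was also highest in endothelial-like nuclei, so endothelial markers were summed in the same astrocyte-like nuclei, where they gave 22.0 to 68.9 CPM in isoflurane and upward of 15.7 CPM in wake mice, whose highest value exceeded all isoflurane values. The mural marker list gave 209.2 to 291.7 CPM against 117.6 to 238.0 CPM. Median depth per mouse was 756 to 1647 UMIs in isoflurane and 636 to 2117 UMIs in wake mice, over 793 to 1578 and 627 to 1792 nuclei. The part of these in the result was not tested.

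*Irs2* in astrocyte-like nuclei was 33.1, 30.2, 22.4, 20.5, 15.3 and 12.7 CPM in WT wake mice and 25.1, 41.5 and 23.0 CPM in APP/PS1 wake mice. Isoflurane values were 41.9, 49.2 and 33.8 CPM in WT and 50.7, 40.4, 36.0 and 40.0 CPM in APP/PS1 mice. The treatments overlapped at 1 wake mouse, mouse 10 with 41.5 CPM, and the next highest wake value, 33.1 CPM, lay below all isoflurane values. The log2 difference was 0.68 ± 0.19 (adjusted p = 0.0342, edgeR), and the call was lost without any 1 of mice 2, 3, 4, 13, 16 or 17. It was also lost with no filter on low counts, with only the groups compared, without mice 1 to 4 and with at least 500 genes per nucleus. Leaving out mice 11, 14 and 17 together gave an adjusted p of 0.125, against 0.0255 for *Igf1r*.

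The promoters of these 2 genes are shown because they are the members that passed the isoflurane test. Each line holds the 250 bases before the RefSeq start site on GRCm38.p6, read on the strand of the gene, with every GC box (GGGCGG on the printed strand or its complement) in capitals.
Igf1r, chr7:67952007-67952256, plus strand: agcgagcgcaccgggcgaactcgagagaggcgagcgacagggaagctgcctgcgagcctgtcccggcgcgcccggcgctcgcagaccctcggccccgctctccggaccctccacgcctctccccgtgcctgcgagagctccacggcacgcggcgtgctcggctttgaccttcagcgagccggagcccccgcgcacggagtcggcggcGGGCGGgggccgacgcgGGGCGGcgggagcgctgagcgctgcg
Irs2, chr8:11008930-11009179, minus strand: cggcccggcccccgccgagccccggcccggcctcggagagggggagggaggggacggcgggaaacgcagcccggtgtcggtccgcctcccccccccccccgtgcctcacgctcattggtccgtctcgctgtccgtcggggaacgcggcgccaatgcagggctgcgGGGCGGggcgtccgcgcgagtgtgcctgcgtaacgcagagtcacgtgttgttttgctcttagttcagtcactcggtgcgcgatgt
The *Igf1r* window held 2 GC boxes and the *Irs2* window 1, a motif present in 32.7% of 32851 promoter windows of that length. The *Irs2* window also held 1 E-box (CACGTG, in 6.02% of windows). Neither window held the FOXO site searched (GTAAACA, in 3.17% of windows), and none of the 9 members with a promoter entry did. A match describes letters in the window and no bound site.

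**Figure D2:**
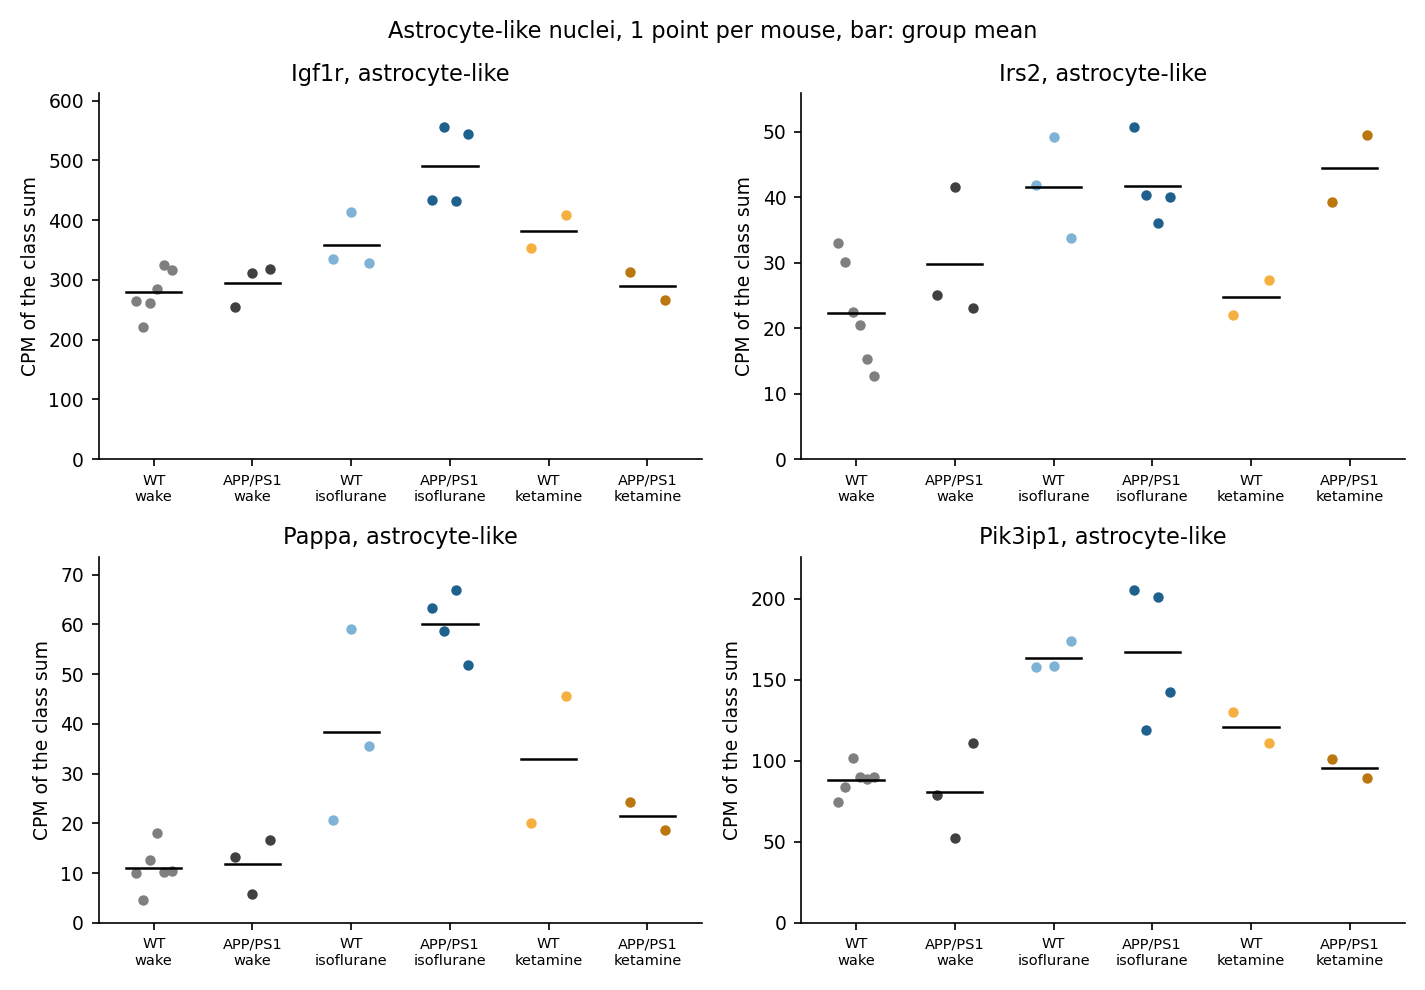
CPM of *Igf1r*, *Irs2*, *Pappa* and *Pik3ip1* in astrocyte-like nuclei, with 1 point per mouse, a bar at each group mean and the 6 groups on the horizontal axis. For *Igf1r* the isoflurane mice (327.7 to 556.3) sit above the wake mice (220.5 to 325.6), and for *Irs2* one wake mouse (41.5) reaches into the isoflurane range.

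Several members had differences that did not pass the test. *Igf1r* in CA1-like nuclei had a log2 difference of -0.33 (adjusted p = 0.0861), and *Irs1* was negative in all 8 classes, from -0.08 to -0.60. *Insr* stayed between -0.11 and 0.28 over the 8 classes. *Igf1* in interneuron-like nuclei, its highest class, was 68.6 to 143.3 CPM in wake and 72.4 to 129.4 CPM in isoflurane mice, which overlap. In microglia/macrophage-like nuclei, fitted without mouse 12 because it gave 2 such nuclei, *Igf1r* had a log2 difference of 1.04 ± 0.23 (adjusted p = 0.0612), where 0.351% of 3703 genes were called. That fit was added after the data were seen. The difference was 0.94 to 1.24 over its 8 alternatives, 5 of which called it (adjusted p 0.00102 to 0.128), and leaving out 1 mouse called it in 4 of 19 fits (adjusted p 0.00803 to 0.169). The ranges overlapped, with 158.4 to 588.0 CPM in wake and 309.0 to 793.9 CPM in isoflurane mice.

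Ketamine with xylazine was compared with the same 9 wake mice in 7 classes, so both treatment comparisons share their controls. In CA3-like and subicular/cortical-like neurons *Irs2* fell and *Insr* rose, and *Igfbp4* fell in subicular/cortical-like neurons. These were 5 of 54 tests of the members (9.26%), 2 higher and 3 lower, against 6.87% of all 84959 tests of genes (3.74% higher and 3.13% lower). These comprised 2 of 7 members in CA3-like nuclei, where 6.51% of genes were called, and 3 of 8 in subicular/cortical-like nuclei, where 8.79% were. With the run of mouse numbers in the model none of the 5 passed (adjusted p 0.774 to 0.943). The log2 differences were then -0.86 ± 0.53 for *Irs2* and 0.11 ± 0.20 for *Insr* in CA3-like nuclei, and -0.31 ± 0.56, 0.12 ± 0.20 and -0.87 ± 0.88 for *Irs2*, *Insr* and *Igfbp4* in subicular/cortical-like nuclei, and calls over all genes dropped from 5836 to 12. With a stricter gate on nuclei, which asks for a larger lead of a class over the next class, all 3 subicular/cortical calls were lost.

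*Irs2* in CA3-like nuclei was 5.31 and 6.25 CPM in the WT and 6.54 and 6.59 CPM in the APP/PS1 ketamine mice. These levels rest on few counts, 4 and 5 UMIs in mice 27 and 28 and 9 and 14 UMIs in mice 25 and 26. Wake mice had 15.2, 25.6, 12.9, 15.4, 14.3 and 11.2 CPM (WT) and 14.5, 17.7 and 16.3 CPM (APP/PS1). The groups did not overlap, and the wake mouse of the ketamine run, mouse 29, had the lowest wake value of 11.2 CPM. The log2 difference was -1.28 ± 0.27 (0.413-fold, adjusted p = 0.0109, edgeR), lost without mouse 25 or mouse 27.

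In subicular/cortical-like nuclei *Irs2* was 5.89 and 11.6 CPM in WT and 8.36 and 5.59 CPM in APP/PS1 ketamine mice. The wake mice spanned 9.23 to 21.1 CPM, the lowest again mouse 29, so that mouse 28 overlapped with them. The log2 difference was -0.98 ± 0.27 (adjusted p = 0.0308, edgeR), lost without mouse 10, 25, 26 or 27. In CA1-like nuclei, given as a description, ketamine values were 4.75, 9.07, 6.72 and 5.16 CPM against 9.16 to 24.4 CPM in wake mice.

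*Insr* in CA3-like nuclei was 111.4 and 112.6 CPM in WT and 97.3 and 109.2 CPM in APP/PS1 ketamine mice, all above the wake range of 76.1 to 95.8 CPM, whose top was mouse 29. The log2 difference was 0.42 ± 0.12 (adjusted p = 0.0389, edgeR). In subicular/cortical-like nuclei it was 124.8 and 111.0 CPM in WT and 119.9 and 124.7 CPM in APP/PS1 ketamine mice against 77.0 to 114.4 CPM in wake mice, with 1 overlap (log2 0.41 ± 0.12, adjusted p = 0.0402, edgeR). Isoflurane mice, not called against wake for *Insr*, had 110.3 to 124.9 CPM there, much the range of the ketamine mice. In CA3-like nuclei isoflurane mice had 85.8 to 102.2 CPM. The 2 anesthetics were not tested against each other. Both *Insr* calls were lost without any 1 of 9 mice, namely 1, 2, 13, 14, 17, 25, 26, 27 and 28.

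*Igfbp4* in subicular/cortical-like nuclei was 1.77 and 4.83 CPM in WT and 5.02 and 2.58 CPM in APP/PS1 ketamine mice. Such levels rest on few counts, since 182.4 CPM of *Igfbp5* in this class of mouse 27 was 310 UMIs. Wake mice had 4.92 to 17.8 CPM, overlapping at mouse 25. The log2 difference was -1.39 ± 0.41 (adjusted p = 0.0409, edgeR), lost without any 1 of 8 mice, namely 1, 2, 13, 18, 25, 26, 27 and 28. Without mice 11, 14 and 17, the CA3 *Irs2* (adjusted p = 0.0279) and the *Igfbp4* call (0.0432) were kept and the other 3 were lost.

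**Figure D3:**
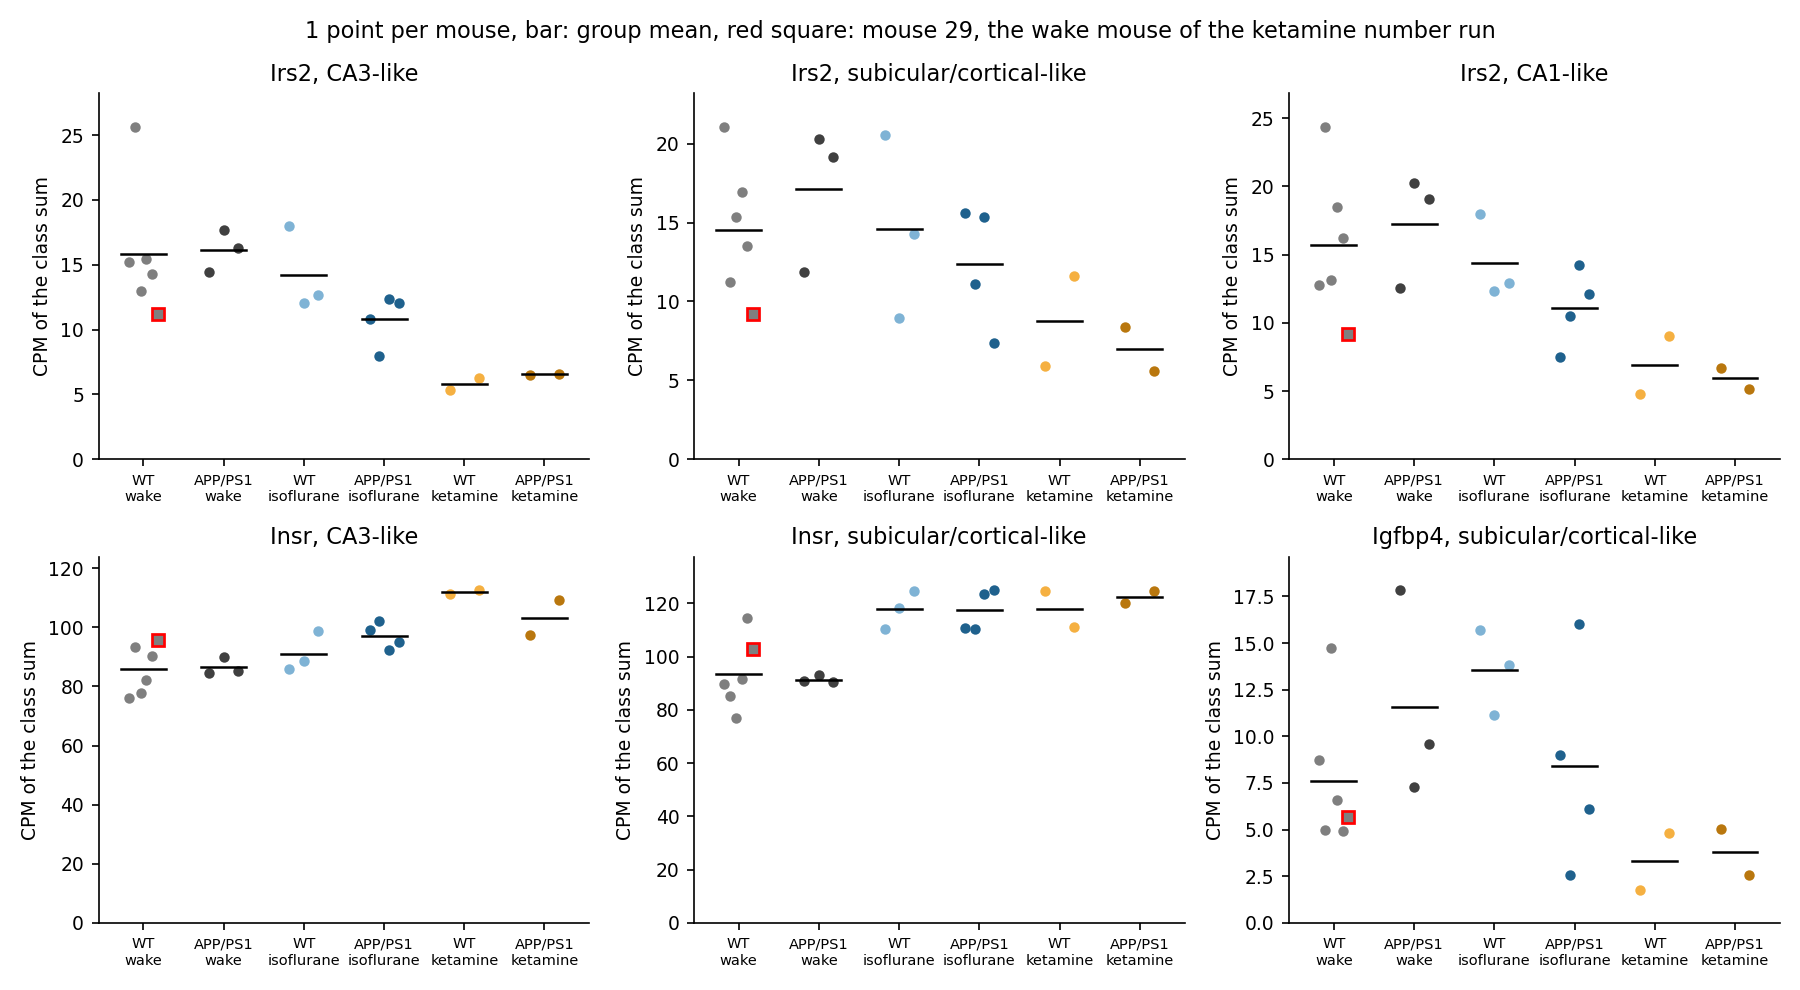
CPM of *Irs2*, *Insr* and *Igfbp4* in CA3-like, subicular/cortical-like and CA1-like nuclei, with 1 point per mouse, a bar at each group mean, and mouse 29, the wake mouse of the ketamine run, as a red square. *Irs2* in CA3-like nuclei is 5.31 to 6.59 under ketamine and 11.2 to 25.6 in wake mice, with mouse 29 at the lower end.

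In the APP/PS1 ketamine mice, whose earlier results were also known when the list was drawn up, none of the members was called by edgeR against the 3 APP/PS1 wake mice in 70 tests (15 at an unadjusted p under 0.05), where 0.865% of 99573 tests of genes were called (16365 at an unadjusted p under 0.05). The smallest adjusted p was 0.0662, for *Irs2* in CA1-like nuclei (log2 -1.46 ± 0.41, edgeR). DESeq2 called 2 of the member tests there and 2326 of the 99573 tests of genes. *Igfbp5* in CA1-like nuclei had a log2 difference of -0.03 ± 0.80 (adjusted p = 0.989).

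None of the 9 members other than *Igfbp5* was called between the genotypes in 62 edgeR tests (1 at an unadjusted p under 0.05). Of 99573 tests of genes 0% were called (2487 at an unadjusted p under 0.05). DESeq2 also called 0 of either. *Prnp*, whose promoter drives the transgenes, was not called either, with log2 differences of 0.60 ± 0.20 (astrocyte-like) to 2.02 ± 0.45 (subicular/cortical-like) in the 8 classes and adjusted p above 0.999 in each. The absence of calls is therefore no sign that the genotypes are alike. Without mice 11, 14 and 17, 5 tests of genes and none of a member were called. *Insr* was within -0.06 to 0.04 on the log2 scale over the 8 classes. By the interaction test of edgeR, no tested treatment difference of a member was called as dependent on genotype. There were 70 tests for isoflurane (0 at an unadjusted p under 0.05) and 54 for ketamine (1 at an unadjusted p under 0.05). The ketamine tests covered 9 members, without *Igfbp5*, and left out CA1-like nuclei. Of all genes 0% and 0.00118% were called (3240 of 99573 and 1999 of 84959 tests at an unadjusted p under 0.05), and DESeq2 called 0 members.

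*Igfbp5* set the choice of these genes, and its values in the WT ketamine mice are given without a test. Over the whole library it was 450.5 CPM in mouse 27 and 447.9 CPM in mouse 28, the WT ketamine mice, and 18.1 to 59.5 CPM in the other 18. In whole libraries the number of cells of a type and the RNA per cell cannot be told apart. In CA1-like nuclei it was 121.7 and 55.9 CPM in those 2 mice and 1.22 to 19.4 CPM in the others, among them 9.1 and 7.2 CPM in the APP/PS1 ketamine mice.

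The high values were not particular to CA1-like nuclei. In every one of the 8 tested classes mice 27 and 28 were the 2 highest. In oligodendrocyte-like nuclei they had 570.3 and 238.2 CPM against 1.61 to 69.2 CPM in the others. In DG granule-like nuclei they had 245.2 and 138.8 CPM against 14.3 to 59.4 CPM, and in astrocyte-like nuclei 494.1 and 266.5 CPM against 91.4 to 216.8 CPM. Fibroblast-like nuclei had the highest level, 6939 and 5891 CPM against 177.1 to 1915 CPM in 14 other mice. They numbered 321 and 657 in mice 27 and 28. The APP/PS1 ketamine mice 25 and 26 had 1021 and 379 such nuclei, with 452.4 and 177.1 CPM.

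**Figure D4:**
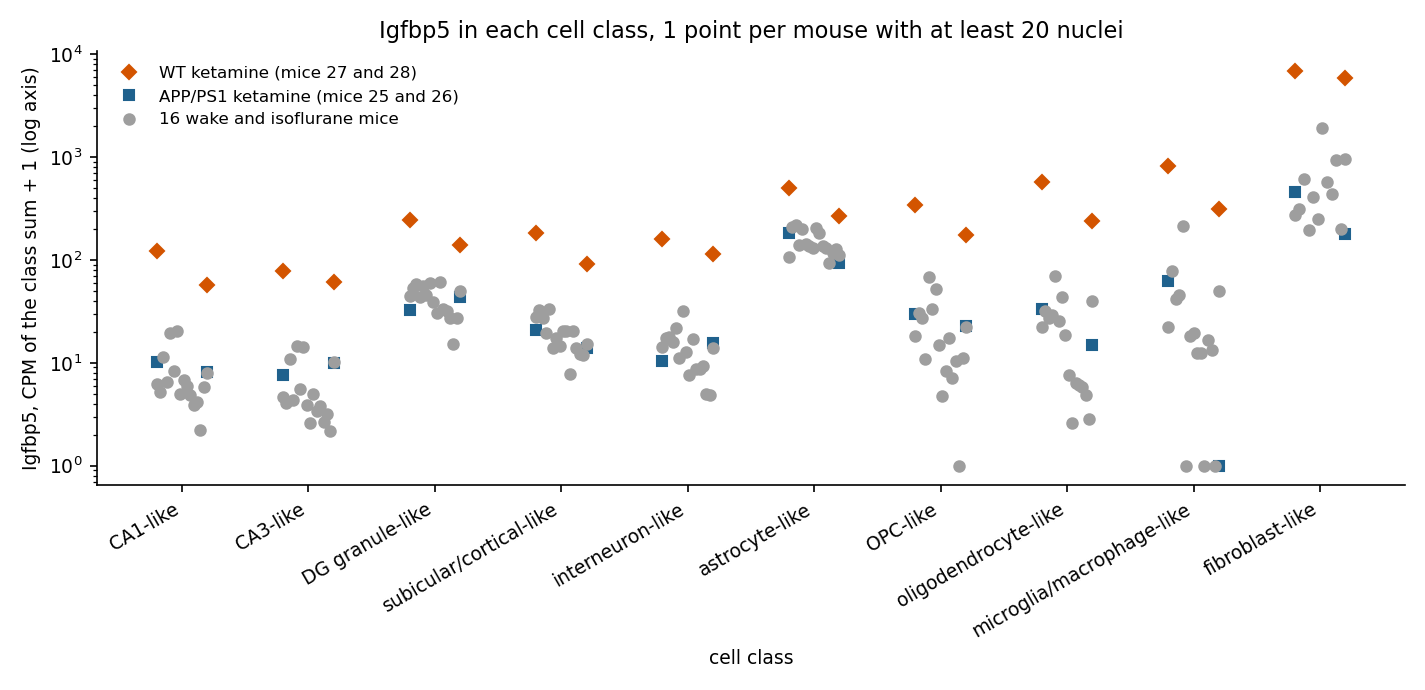
*Igfbp5* as CPM + 1 on a log axis in each cell class, with 1 point per mouse with at least 20 nuclei of the class. The WT ketamine mice 27 and 28 (diamonds) lie above the other mice in CA1-like nuclei (121.7 and 55.9 CPM against at most 19.4) and in fibroblast-like nuclei.

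Per nucleus, *Igfbp5* varied 1.71-fold and 1.75-fold between classes outside fibroblasts in mice 27 and 28, and median depth 5.79-fold and 6.72-fold. A narrower range for *Igfbp5* than for depth was also seen in mouse 12 (3.31-fold against 3.87-fold) and mouse 25 (7.92-fold against 10.1-fold). It was not seen in mice 2 and 18, and the other 14 mice had at least 1 class with 0 *Igfbp5* UMIs. Outside fibroblast-like nuclei mouse 27 had 0.284 to 0.486 UMIs per nucleus over 9 classes whose median depths were 575.5 to 3332 UMIs. Mouse 28 had 0.164 to 0.287 UMIs per nucleus over 10 classes with median depths of 615 to 4131 UMIs. Fibroblast-like nuclei held 6.06 and 4.45 UMIs per nucleus, with a UMI in 85.7% and 87.5% of them.

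*Col1a1*, chosen after these values were seen, was 62.9 and 309.5 CPM of the whole library in mice 27 and 28 and 0.455 to 40.2 CPM in the others. It was a marker used to assign fibroblast-like nuclei, while *Igfbp5* was left out of the assignment, so ratios of the 2 genes depend on the gate. In mouse 27 there were 4.25 to 7.46 *Igfbp5* UMIs per *Col1a1* UMI across the classes outside fibroblasts, against 7.43 in fibroblast-like nuclei. In mouse 28 the range was 0.947 to 3.69, against 1.38, and in mouse 25 it was 0.727 to 5.17, against 1.15. In mouse 26 it was 2.25 to 30, against 0.817, and in mouse 29 it was 2 to 9.82, against 2, over classes with a *Col1a1* UMI. In these last mice no such class lay below the fibroblast-like nuclei. The 8 fibroblast markers summed to 117.5 to 188.1 CPM in CA1-like nuclei of the WT ketamine mice and 35.1 to 97.2 CPM in all others, none of the 8 being at 0. In DG granule-like nuclei they gave 142.0 to 221.1 CPM against 13.9 to 99.0 CPM. Their part in the *Igfbp5* values was not tested.

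*Igf2* and *Igfbp2* were also highest in fibroblast-like nuclei, with 46.4 and 393.2 CPM for *Igf2* and 185.4 and 816.7 CPM for *Igfbp2* in fibroblast-like nuclei of mice 27 and 28. In the CA1-like nuclei *Igf2* was 0.0 and 6.04 CPM in mice 27 and 28 (others 0 to 6.56), and *Igfbp2* was 4.15 and 12.8 CPM (others 0 to 14.2), mouse 28 being second highest of the 20 mice for both.

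**Figure D5:**
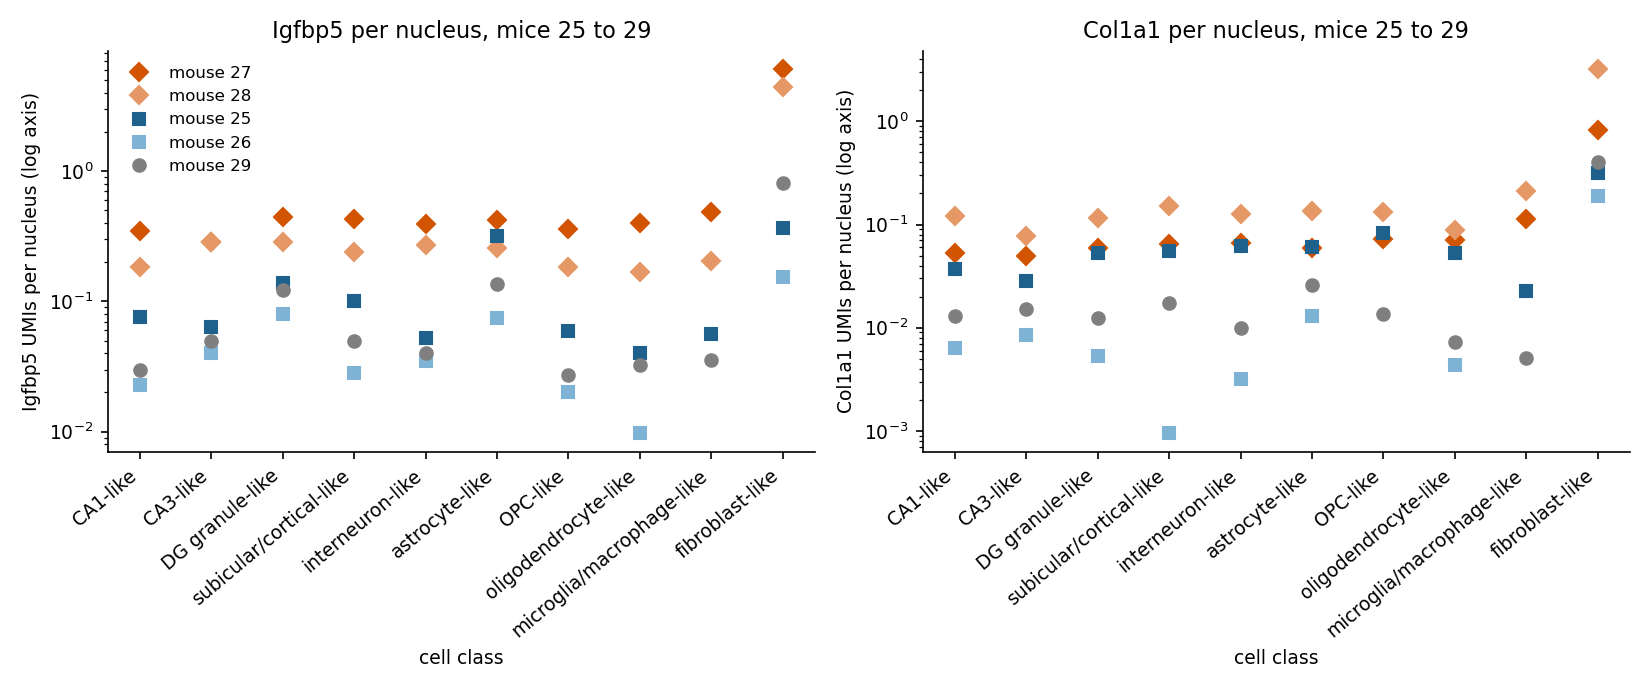
UMIs per nucleus of *Igfbp5* (left) and *Col1a1* (right) in each cell class of mice 25 to 29, on log axes, 1 point per mouse and class, with values of 0 left off. *Igfbp5* in mouse 27 stays between 0.284 and 0.486 UMIs per nucleus outside fibroblast-like nuclei, which hold 6.06.

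A further 72 genes of the pathway, listed by role with earlier results known, were read in the same fits, and 61 of them passed the filter on low counts in at least 1 class. Under isoflurane 27 of 402 tests were called (6.72%, 7 higher and 20 lower, 21 genes), under ketamine 27 of 346 (7.8%, 11 higher and 16 lower, 19 genes), beside 5% and 6.87% of all genes. By direction, all genes were called higher in 2.91% and lower in 2.09% of isoflurane tests, and higher in 3.74% and lower in 3.13% of ketamine tests. No difference from these shares was tested. Among the brakes of the pathway, 8 of 48 isoflurane tests were called, 7 of them lower (median log2 -0.22). Of 99 tests of phosphoinositide 3-kinase and Akt genes, 1 was called.

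In astrocyte-like nuclei isoflurane raised *Pappa*, the protease that cleaves IGF binding proteins, 4.10-fold. Wake mice had 4.64 to 18.0 CPM and isoflurane mice 20.6 to 66.9 CPM, without overlap (log2 2.04 ± 0.26, adjusted p = 7.42e-05, edgeR). In DG granule-like nuclei *Pappa* fell (log2 -1.45 ± 0.32, adjusted p = 0.0193, edgeR), a value named after it was seen. *Pik3ip1*, an inhibitor of phosphoinositide 3-kinase, rose from 52.4 to 110.9 CPM in wake to 119.1 to 205.1 CPM (log2 0.96 ± 0.15, adjusted p = 0.000455), also without overlap. *Gab2*, an adapter, rose as well (log2 0.86 ± 0.16, adjusted p = 0.00254), with ranges of 91.2 to 126.6 and 118.3 to 279.6 CPM that overlap. Under ketamine, without the run of mouse numbers in the model, *Pappa* (log2 1.31 ± 0.32, adjusted p = 0.0157, edgeR) and *Gab2* (0.64 ± 0.19, 0.0466) were also called higher in astrocyte-like nuclei. *Pik3ip1* was not called there. These ketamine values were named after they were seen.

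Of 105 isoflurane tests of genes downstream of Akt, 7 were called, 6 of them lower, beside 5% of all genes (2.09% lower). *Foxo6*, a FOXO factor of hippocampal neurons, fell in CA3-like nuclei from 10.7 to 17.3 CPM in wake to 3.99 to 7.63 CPM under isoflurane (log2 -1.48 ± 0.20, adjusted p = 0.000830, edgeR). *Deptor*, an inhibitor of mTOR, fell in oligodendrocyte-like nuclei from 9.28 to 68.8 CPM to 0 to 7.28 CPM (log2 -2.52 ± 0.47, adjusted p = 0.00239). Neither pair of ranges overlaps. The isoflurane levels of *Deptor* rest on few counts, in a class of 14055623 UMIs over the 20 mice, and the lowest isoflurane mouse had none.

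Under ketamine *Shc3*, a neuronal adapter, fell in subicular/cortical-like nuclei from 78.7 to 163.4 CPM in wake to 28.8 to 43.5 CPM (log2 -1.62 ± 0.31, adjusted p = 0.00385, edgeR). This call held with the run of mouse numbers in the model. Within the ketamine run, however, mouse 29 is the only wake mouse, and its 163.4 CPM was the highest wake value. *Foxo6* in CA3-like nuclei (log2 -1.70 ± 0.30, adjusted p = 0.00387), *Rheb*, the activator of mTOR, in subicular/cortical-like nuclei (-0.67 ± 0.13, 0.00560) and *Eif4ebp2*, a repressor of translation, in the same class (-1.08 ± 0.22, 0.00573) fell, and *Pappa2* rose in DG granule-like nuclei (1.87 ± 0.39, 0.00614). With that term these 4 differences were -1.44 ± 0.51, -0.20 ± 0.24, -0.56 ± 0.37 and 1.37 ± 0.70, and none passed. Leaving out 1 mouse also lost *Rheb* (mouse 25), *Eif4ebp2* (mouse 27) and *Pappa2* (mouse 27), and *Rheb* was also lost with the stricter gate. Under isoflurane *Shc3* (log2 -1.30 ± 0.25, adjusted p = 0.00342, edgeR) and *Rheb* (-0.51 ± 0.11, 0.00830) were also called lower in subicular/cortical-like nuclei, values named after they were seen. *Eif4ebp2* in that class and *Pappa2* in DG granule-like nuclei were not called under isoflurane. In APP/PS1 mice alone 3 of 402 tests were called under ketamine (0.746%, all lower, beside 0.865% of all genes), namely *Rheb* (-1.09 ± 0.17, adjusted p = 0.00751) and *Ptpn2*, a phosphatase of the insulin receptor (-1.12 ± 0.21, 0.0140), in CA1-like nuclei and *Rheb* in subicular/cortical-like nuclei (-0.87 ± 0.20, 0.0440). With the run term these were -0.73 ± 0.25, -1.05 ± 0.30 and -0.37 ± 0.29 and none passed (adjusted p 0.205 to 0.821). Both CA1 calls were lost without mouse 25 or mouse 26, the 2 mice of that group, and the last without any 1 of 11 mice, namely 2, 10, 12, 13, 14, 17, 18, 25, 26, 27 and 28.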

How the data were processed

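Raw UMI counts per gene and nucleus, as deposited, were made by the authors with Cell Ranger 5.0.0 on mm10 with introns counted, per the labels and methods. They are whole numbers and were not normalized. The methods also name CellBender, which removes ambient RNA, but the deposited files do not state whether it was applied. The labels describe perfusion before dissection, the methods decapitation. The methods also describe tissue handled in batches that held each wake and isoflurane group, with no mention of ketamine mice, but the labels assign no batch, so runs of mouse numbers entered as a term in an alternative only.

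Nuclei were assigned to classes from fixed markers and then by the likelihood of the whole profile. Possible doublets (19554 nuclei, 12.2%) and 108 nuclei with a low lead were left out. Counts were summed per mouse and class, CPM was computed from those sums, and each class was fitted with edgeR 4.0.16 in R 4.3.3 (TMM scaling, filterByExpr, quasi-likelihood test, all 20 mice in 6 groups), with Benjamini-Hochberg adjustment over all genes of the class and a threshold of 0.05. The test on single nuclei in the methods was not used, since nuclei of 1 mouse are not replicates. p-values measure the spread between mice. Code was tested on simulated data.

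The members and lists were chosen with earlier results of these data known. Text names the 10 members, at most 5 called pathway genes per comparison by smallest adjusted p, and the genes most like a member over 14 classes. Further values of these pathway genes are marked as named after they were seen. Alternatives were DESeq2 1.42.0, no filter, fewer groups, a run term, leaving out mice 1 to 4 or each mouse, a stricter gate and at least 500 genes per nucleus. Leaving out mice 11, 14 and 17 and fitting microglia without mouse 12 were added after seeing the data. Promoter sequences are from RefSeq (GRCm38.p6), which held entries for 9 of the 10 members, and no genome coordinates were converted. Figures were drawn with matplotlib 3.10.9.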

Additional observations from a re-analysis of the deposited data

Results flagged for a closer look

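Of 36 groups of values tested for a mouse far from the rest of its group, 5 were singled out. Chance singles out about 1 in 20, but 4 of the 5 concern *Igfbp5*, the gene that chose the members. Those 4 are given as a description, and the count was not compared with that rate. *Igfbp5* was 19.4 CPM in CA1-like nuclei of wake mouse 12, against 1.22 to 6.98 CPM in the other WT wake mice. The same mouse had 31.0 CPM in interneuron-like nuclei (others 3.97 to 13.2). *Igfbp5* was 32.4 CPM in oligodendrocyte precursor-like nuclei of mouse 11, labelled APP/PS1 under isoflurane (others 7.35 to 10.1), and 205.2 CPM in astrocyte-like nuclei of WT wake mouse 14 (others 106.1 to 136.9). *Irs2* was 25.6 CPM in CA3-like nuclei of mouse 12 (others 11.2 to 15.4).

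The *Igfbp5* difference between ketamine and wake mice had opposite signs in the genotypes in 2 classes, with every mouse of each ketamine group on its side of the wake mean. On the log2(CPM + 1) scale it was 2.34 in WT and -0.27 in APP/PS1 mice in DG granule-like nuclei, a gap of 2.62. In subicular/cortical-like nuclei it was 2.92 and -0.72, a gap of 3.64. In APP/PS1 mice the DG granule-like values overlapped, with 52.4, 54.5 and 31.0 CPM in wake and 31.6 and 42.6 CPM in ketamine mice. In CA3-like nuclei they had 3.05, 13.7 and 2.77 CPM in wake and 6.54 and 8.94 CPM under ketamine, so no fall was seen there. In APP/PS1 mice alone edgeR called *Igfbp5* in no class. The WT ketamine mice are those that chose the gene, and the gap between genotypes was not tested.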

How the results depend on the processing

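No paired analysis was possible because each mouse has a number of its own, so no 2 groups share replicate numbers. The run term is the nearest blocked fit. Of the members, 2 were called under isoflurane and 1 with no filter on low counts, with only the groups compared, without mice 1 to 4, with at least 500 genes per nucleus, and without mice 11, 14 and 17. Leaving out each mouse gave 1 to 3. *Igf1r* in microglia/macrophage-like nuclei, fitted apart, passed in 5 of 8 alternatives. In astrocyte-like nuclei the *Igf1r* call was kept in each of the 8 alternatives, with an adjusted p of 0.000163 to 0.0316, and the *Irs2* call in 3 of them. Under ketamine 5 were called, and 0 with the run of mouse numbers as a term, 2 with a stricter gate and 2 without mice 11, 14 and 17. Leaving out each mouse gave 0 to 6, and 0 without mouse 25 or mouse 27. With no filter, with only the groups compared and without mice 1 to 4 the counts were 5, 4 and 4, but both *Insr* calls were lost in each, and *Igfbp4* in the last, with other member tests called in their place. In APP/PS1 mice under ketamine 0 were called, but 2 by DESeq2 and 1 without mice 1 to 4. No alternative called a member between genotypes or by the interaction, where *Igfbp5* was left out between genotypes and under ketamine. The comparison of genotypes has no fit restricted to fewer groups because it uses all of them. Over all genes, isoflurane calls went from 4977 to 8237 with the run term and 2183 without mice 1 to 4. Ketamine calls went from 5836 to 12 with the run term and 3850 without mice 1 to 4. Calls in APP/PS1 mice went from 861 to 2326 by DESeq2, 1404 with no filter, 488 with only the groups compared, 12 with the run term, 311 without mice 1 to 4 and 284 without mice 11, 14 and 17. Calls between genotypes went from 0 to 16 with no filter, 1 with the run term and 5 without mice 11, 14 and 17. The causes were not tested. The class with the highest level was the same by the stricter gate and by the share of nuclei with a UMI for every member except *Igfbp4*, for which fibroblast-like nuclei ranked 4 by that share.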
